A study of Saccharomyces cerevisiae with 8 samples.

Results

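Haploid budding yeast answers the peptide pheromone of the opposite mating type through a G protein and a MAP kinase cascade that ends at Ste12, a transcription factor. Ste12 turns on genes for adhesion, cell fusion and fusion of the nuclei, and Kar4 is its partner at a later group of nuclear fusion genes. Without pheromone these genes are read at a low basal level, and a/alpha diploid cells, which do not mate, switch off much of the pathway. The 10 genes described here are those activators, STE12 and KAR4, and 8 of the genes that pheromone induces: FUS1, FUS2, PRM1 and FIG1 of cell fusion, PRM2 and PRM3 of nuclear fusion, and AGA1 and FIG2 of agglutination. They were chosen by name, and each was read by 1 probe set, out of 5448 tested genes. All 10 passed the filter on dim probe sets, and none of the 10 carries the suffix that marks a probe set shared between genes.

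The samples were 8 expression arrays from 4 strains, 2 for each strain, grown in separate cultures and experiments. By the labels, the strain called A880STM1K is A880 transformed with STM1 carrying the R237K substitution, A880STM1 is A880 transformed with unaltered STM1, A880 is BY4741 with a POP2 deletion, and BY4741 served as wild type. STM1 encodes a ribosome-associated protein and POP2 a nuclease of the CCR4-NOT deadenylase. All strains were grown in SC medium with 2% glucose and then for 12 hours in SC medium with 2% glycerol, and the labels name no pheromone or mating partner. What vector and promoter drove STM1, and from how many transformants, is not stated in the labels.

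The strain labels were checked against POP2, which gave 255 and 176 signal units (linear MAS5 signal, replicates 1 and 2) on the arrays labelled A880STM1K, 181 and 286 on those labelled A880STM1, 0.221 and 0.452 on A880 arrays and 883 and 814 on BY4741 arrays. POP2 was thus not above background in A880, as its label says, but was detected on the 4 arrays of its named derivatives, which goes against their labels, so these groups are called below by the name on the label and every direction that involves them carries this limit. PRM8, a gene of the induced or mating list below, was likewise above background on all arrays except those of A880. STM1 averaged 8420.3 ± 391.6 signal units on arrays labelled A880STM1K, 7234 ± 3121 on those labelled A880STM1, 3028 ± 96.2 in A880 and 2304 ± 369.6 in BY4741 (SD, n = 2 each). Mating-type markers also set those 4 arrays apart. Of 8 genes transcribed in haploid cells and repressed in a/alpha diploids, the summed signal lay between 983 and 1281 on arrays labelled A880STM1K and between 613 and 723 on those labelled A880STM1, against 5306 to 5336 on A880 and 4379 to 4451 on BY4741 arrays. The summed signal of 7 a-cell markers, the type expected of BY4741, was 842 to 940.2 on arrays labelled A880STM1K, 675 to 761 on those labelled A880STM1, 2942 to 3367 on A880 and 3070 to 3073 on BY4741 arrays. None of these 15 markers was below background on both arrays of a strain. Among 5 meiotic genes listed as a/alpha diploid markers, IME4 was higher on all 4 arrays of the STM1 strains than on the other 4. It gave 199 and 272 signal units on arrays labelled A880STM1K and 315 and 596 on those labelled A880STM1. On A880 arrays it gave 26.3 and 20.2, and on BY4741 arrays 41.6 and 38.2. The other meiotic genes did not share that pattern and are described below. In RNA from whole cultures, fewer cells of a type and less RNA per cell cannot be told apart.

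**Figure D1:**
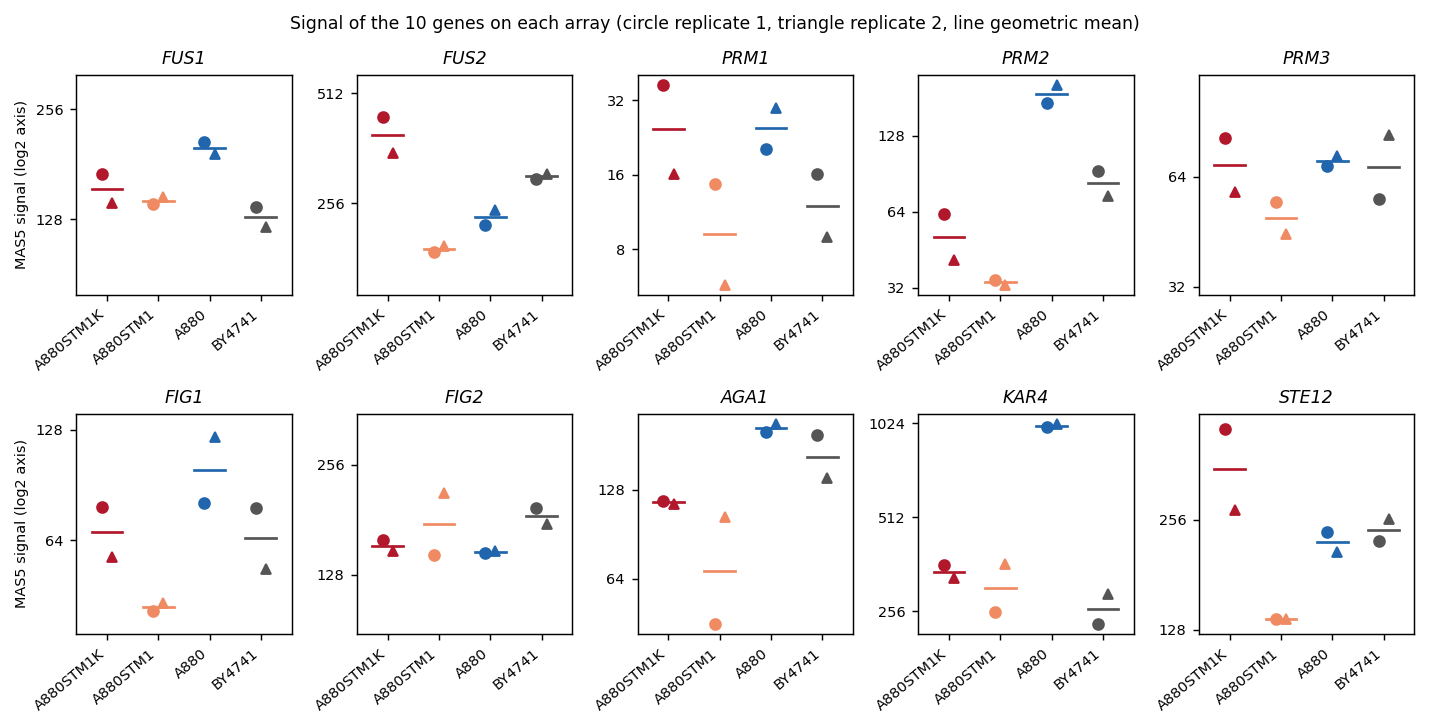
MAS5 signal of the 10 genes on each array, on a log2 axis, with the strains named as on their labels; circles are replicate 1, triangles replicate 2 and lines the geometric mean of the pair. KAR4 and PRM2 stand highest on the A880 arrays, while FUS2 and STE12 are highest on the arrays labelled A880STM1K and lowest on those labelled A880STM1.

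Changes between strains are given as log2 with the SE of limma's fit to all 8 arrays. A change was called where its p, adjusted over all tested probe sets, was below 0.05. That fit gave each probe set 1 spread for all strains, although the replicates differed unequally. The median difference between replicates was log2 0.46 for A880STM1 and 0.39 for A880STM1K, against 0.14 for BY4741 and 0.12 for A880. An SE may thus be too large for A880 against BY4741 and too small where an STM1 strain is compared. The activators moved in different ways. STE12 (YHR084W) gave 453 and 272 signal units on the arrays labelled A880STM1K, 137 and 137 on those labelled A880STM1, 237 and 208 on A880 arrays and 224 and 257 on BY4741 arrays. Both arrays labelled A880STM1K lay above, and both labelled A880STM1 lay below, the other 4, although the replicates labelled A880STM1K lay furthest apart of the 4 pairs. STE12 was 2.56-fold higher on arrays labelled A880STM1K than on those labelled A880STM1 (log2 1.36 ± 0.31, adjusted p = 0.00770), and no neighbouring levels in the order A880STM1K, BY4741, A880, A880STM1 differed by the test (adjusted p from 0.127 to 0.846).

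KAR4 (YCL055W) was called in 3 of the 6 comparisons, as was PRM2, more often than any other member. Its signals were 360.0 and 326 on the arrays labelled A880STM1K, 254 and 361 on those labelled A880STM1, 993 and 1018 on A880 arrays and 233 and 291 on BY4741 arrays. A880 therefore stood alone, with both arrays far above the other 6. The pair labelled A880STM1 overlapped the BY4741 pair and spanned the pair labelled A880STM1K, while both arrays labelled A880STM1K lay above both BY4741 arrays. KAR4 was 3.86-fold higher in A880 than in BY4741 (log2 1.95 ± 0.27, adjusted p = 0.00198), 3.32-fold lower on arrays labelled A880STM1 than in A880 (log2 -1.73 ± 0.27, adjusted p = 0.00343, but 0.0501 without A880 replicate 2) and 2.93-fold lower on arrays labelled A880STM1K than in A880 (log2 -1.55 ± 0.27, adjusted p = 0.00124). Between the 3 lower strains, the changes were log2 0.18 ± 0.27 for A880STM1K against A880STM1, with a 95% interval of -0.42 to 0.78, log2 0.22 ± 0.27 for A880STM1 against BY4741 and log2 0.40 ± 0.27 for A880STM1K against BY4741 (adjusted p = 0.640, 0.584 and 0.251). The last of these passed the test under other scalings, at log2 0.66 (adjusted p = 0.0141) with quantile normalization and 0.63 (adjusted p = 0.0209) with equal array medians.

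The genes of cell fusion shared neither of these patterns as a group. FUS1 (YCL027W), which encodes a membrane protein of the mating projection and is widely used to report pathway output, gave 170.0 and 142 signal units on arrays labelled A880STM1K, 141 and 148 on those labelled A880STM1, 208 and 193 on A880 arrays and 138 and 122 on BY4741 arrays. Both A880 arrays were the highest, yet FUS1 passed the test in 0 of 6 comparisons, the largest difference being log2 0.63 ± 0.29 for A880 against BY4741 (95% interval -0.02 to 1.28, adjusted p = 0.178). Only the fit to those 4 arrays alone gave a call there, at adjusted p = 0.0169. FUS1 varied little over the 8 arrays, with an SD of 0.26 on the log2 scale, against 1.01 for PRM2 and 0.84 for KAR4.

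FUS2 (YMR232W), whose product acts inside the cell at the fusion site, gave 441 and 352 signal units on arrays labelled A880STM1K, 188 and 195 on those labelled A880STM1, 224 and 246 on A880 arrays and 298 and 308 on BY4741 arrays. The 4 pairs did not overlap, and the arrays labelled A880STM1K were highest. FUS2 was 2.06-fold higher on arrays labelled A880STM1K than on those labelled A880STM1 (log2 1.04 ± 0.27, adjusted p = 0.0126) and 1.68-fold higher than in A880 (log2 0.75 ± 0.27, adjusted p = 0.0390). The first of these calls was lost in a fit to the 4 arrays alone (adjusted p = 0.126), and the second without any 1 of the BY4741 or A880 arrays or A880STM1K replicate 1 (log2 0.59 to 0.82, adjusted p from 0.0955 to 0.234).

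PRM1 (YNL279W), which encodes a membrane protein that helps plasma membranes fuse, lay near background, at 36.9 and 16.2 signal units on arrays labelled A880STM1K, 14.7 and 5.77 on those labelled A880STM1, 20.4 and 29.7 on A880 arrays and 16.1 and 8.95 on BY4741 arrays. On 1 of the 2 arrays labelled A880STM1 it was not above background, which ranged from 5.15 to 8.40 over the arrays. PRM1 passed the test in 0 of 6 comparisons, and its largest value was log2 -1.42 ± 0.63 for A880STM1 against A880 (95% interval -2.82 to -0.02, adjusted p = 0.124).

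FIG1 (YBR040W), a membrane protein of calcium entry and cell fusion, gave 78.7 and 57.4 signal units on arrays labelled A880STM1K, 41.0 and 42.9 on those labelled A880STM1, 81.0 and 122 on A880 arrays and 78.3 and 53.3 on BY4741 arrays. Both arrays labelled A880STM1 lay below all others. FIG1 was 2.37-fold lower there than in A880 (log2 -1.25 ± 0.39, adjusted p = 0.0484). That call rests on the threshold: it was lost with equal array medians (log2 -0.86, adjusted p = 0.127), in the fit to 4 arrays (adjusted p = 0.0637) and when any 1 of the BY4741, A880 or A880STM1 arrays was left out (log2 -1.54 to -0.95, adjusted p from 0.0612 to 0.297).

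The 2 genes of nuclear fusion differed from each other. PRM2 (YIL037C), a predicted membrane protein needed for efficient nuclear fusion, gave 62.5 and 41.3 signal units on arrays labelled A880STM1K, 34.4 and 33.0 on those labelled A880STM1, 172 and 204 on A880 arrays and 93.1 and 73.8 on BY4741 arrays. The 4 strains did not overlap, and the order was A880, BY4741, A880STM1K, A880STM1, although neighbours in that order did not differ by the test (adjusted p = 0.0561, 0.135 and 0.232). PRM2 was 5.57-fold lower on arrays labelled A880STM1 than in A880 (log2 -2.48 ± 0.37, adjusted p = 0.00270) and 3.69-fold lower on arrays labelled A880STM1K than in A880 (log2 -1.88 ± 0.37, adjusted p = 0.00217), and the first of these was the largest change of any member in the 6 comparisons.

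Against BY4741, PRM2 was 2.46-fold lower on arrays labelled A880STM1 (log2 -1.30 ± 0.37, adjusted p = 0.0462), a call lost with equal array medians (log2 -1.03, adjusted p = 0.0744) and without any 1 of the BY4741 or A880 arrays or A880STM1 replicate 1 (log2 -1.47 to -1.13, adjusted p from 0.0853 to 0.292). In A880 against BY4741, PRM2 gave log2 1.18 ± 0.37 (95% interval 0.37 to 1.99, adjusted p = 0.0561) and so just missed the threshold. It passed with quantile normalization (log2 1.12, adjusted p = 0.0188), with a pseudocount of 16 (log2 1.04, adjusted p = 0.0335), without the intensity trend (adjusted p = 0.0242), in the fit to 4 arrays (adjusted p = 0.00354) and without any 1 of the arrays labelled A880STM1 or A880STM1K (adjusted p from 0.0256 to 0.0449).

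PRM3 (YPL192C), a nuclear envelope protein of nuclear fusion, gave 81.8 and 58.2 signal units on arrays labelled A880STM1K, 54.5 and 44.8 on those labelled A880STM1, 68.5 and 73.0 on A880 arrays and 55.7 and 83.1 on BY4741 arrays. The arrays labelled A880STM1 were the lowest and the other strains overlapped. PRM3 passed the test in 0 of 6 comparisons, with its largest difference at log2 -0.52 ± 0.38 for A880STM1 against A880 (95% interval -1.36 to 0.33, adjusted p = 0.325), so a change of the size of PRM2 lay outside its interval there.

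The agglutination genes AGA1 and FIG2 are related in sequence and both encode cell wall adhesins, AGA1 the anchor of a-agglutinin. AGA1 (YNR044W) gave 118 and 115 signal units on arrays labelled A880STM1K, 45.1 and 103 on those labelled A880STM1, 200.1 and 214 on A880 arrays and 196 and 140.4 on BY4741 arrays. All 4 arrays of the STM1 strains lay below the other 4. AGA1 was 3.03-fold lower on arrays labelled A880STM1 than in A880 (log2 -1.60 ± 0.41, adjusted p = 0.0247), and the size depended on which of those arrays was used. It was log2 -1.0 (adjusted p = 0.0973) without A880STM1 replicate 1 and -2.20 without A880STM1 replicate 2. The AGA1 call was also lost without A880 replicate 1 (log2 -1.65, adjusted p = 0.129) or A880 replicate 2 (log2 -1.55, adjusted p = 0.150) and narrowly in the fit to 4 arrays (adjusted p = 0.0507). On arrays labelled A880STM1K against A880, AGA1 gave log2 -0.83 ± 0.41 (adjusted p = 0.116), which passed without either of the arrays labelled A880STM1 (adjusted p = 0.0268 and 0.0277) and in the fit to 4 arrays (adjusted p = 0.0377).

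FIG2 (YCR089W) gave 159 and 149 signal units on arrays labelled A880STM1K, 145 and 214 on those labelled A880STM1, 147 and 148 on A880 arrays and 195 and 176 on BY4741 arrays. It varied least of all 10 members, with an SD of 0.21 on the log2 scale over the 8 arrays, and passed the test in 0 of 6 comparisons. In A880STM1 against A880, where AGA1 fell, FIG2 gave log2 0.26 ± 0.31 (95% interval -0.42 to 0.94, adjusted p = 0.544). AGA2, the gene of the adhesive subunit that joins Aga1 at the cell surface, was called lower in the same comparison, at log2 -3.33 ± 0.29 (adjusted p = 9.49e-05).

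**Figure D2:**
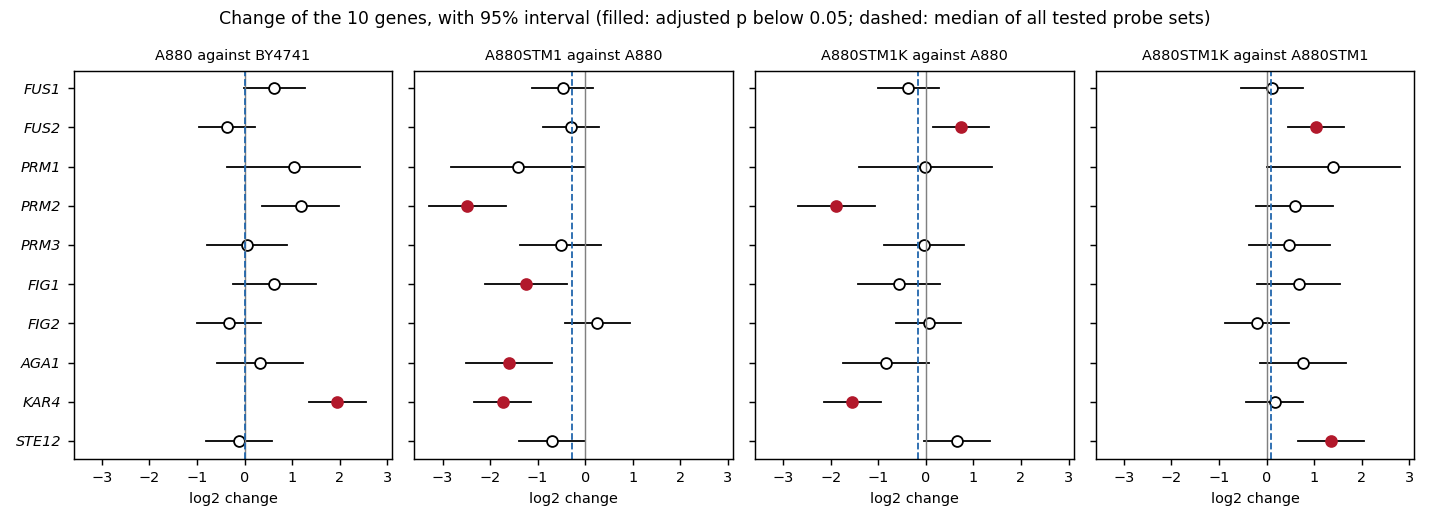
Log2 change of the 10 genes in 4 comparisons, as points with their 95% intervals from the limma fit; filled points passed an adjusted p of 0.05 and the dashed line is the array-wide median. In A880STM1 against A880, 4 members are filled and all lie left of that line, while FUS1, PRM1, PRM3 and FIG2 are open in every panel.

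The comparison of A880 with BY4741 asks, by the labels, what differs when POP2 is deleted, but other genes also separated these strains. CAN1 gave 920 and 775 signal units on A880 arrays, against 0.318 and 0.551 on BY4741 arrays. URA3 gave 5062 and 5537 against 3.32 and 1.14. Neither gene was above background on the BY4741 arrays, while both were on all arrays of the other strains. The strains thus differ in more than POP2, and the part of the POP2 deletion in the differences below cannot be told apart from that of other differences. KAR4 alone of the 10 members was called, 1 higher and 0 lower, or 10% of them, against 13.9% of all 5496 tested probe sets, of which 7.71% were called higher and 6.19% lower, so the members' share was near that of the array. The members' median was log2 0.47 against 0.02 for all tested probe sets, with 7 of 10 on the higher side. Among 20 pheromone signalling genes, 1 rose and 0 fell, the riser being FAR1, the cell cycle inhibitor of mating, at log2 1.32 ± 0.36 (adjusted p = 0.0341). KAR3 and CIK1, the nuclear fusion motor genes known to depend on Kar4, gave log2 0.15 ± 0.30 and 0.11 ± 0.33 (adjusted p = 0.770 and 0.845) in the same comparison. The 7 a-cell markers had 1 rise and 1 fall, and the 4 alpha-cell markers 0 rise and 1 fall. The 8 haploid-cell markers had 2 rise and 0 fall, 25% called higher against the array's 7.71%. The a-cell marker MFA2 gave 334 and 313 signal units on A880 arrays, against 944 and 768 on BY4741 arrays. Of 18 other pheromone-induced or mating genes, AGA2 rose by log2 1.46 ± 0.29 (adjusted p = 0.0107). In that list 3 genes fell: PRM8, a membrane protein gene lower by at least 185-fold and not above background on either A880 array (adjusted p = 9.17e-07), CHS1, a chitin synthase, at log2 -1.55 ± 0.34 (adjusted p = 0.0152), and SAG1, the alpha-agglutinin, at log2 -1.09 ± 0.26 (adjusted p = 0.0216).

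A880STM1 was compared with A880 for the effect of adding STM1, with POP2 detected on the arrays so labelled. There 0 members rose and 4 fell, namely PRM2, KAR4, AGA1 and FIG1, or 40% of them, against 13.1% of all tested probe sets called lower, 6.82% called higher and 19.9% called in either direction. The members' median was log2 -0.97, against -0.27 for all tested probe sets, and 9 of 10 lay on the lower side, although FUS2 changed sign with quantile normalization (log2 0.07) and with equal array medians (log2 0.10). Relative to the median of all tested probe sets, the falls were log2 -2.20 for PRM2, -1.46 for KAR4, -1.33 for AGA1 and -0.97 for FIG1. Called members numbered 1 when replicate 2 of A880 was left out and 2 when its replicate 1 or replicate 1 labelled A880STM1 was, and 2 in the fit to 4 arrays.

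Some of the genes that act upstream of Ste12 fell in that comparison as well. All 8 haploid-cell markers were called lower, with a median of log2 -2.76. Of these, 6 belong to the pheromone pathway, among them STE18, the G protein gamma subunit, at log2 -5.60 ± 0.30 (adjusted p = 2.16e-06), FUS3, the MAP kinase that acts on Ste12, at -4.87 ± 0.34 (adjusted p = 2.42e-05), STE5, its scaffold, at -2.43 ± 0.29 (adjusted p = 0.000647), and GPA1, the G protein alpha subunit, at -2.44 ± 0.30 (adjusted p = 0.000760). In signal units STE18 stood at 24.0 and 17.7 on the arrays labelled A880STM1, against 975 and 1021 in A880. Of the 20 signalling genes 9 fell and 0 rose, 45% against the array's 13.1% called lower. Of the 13 that are in no marker list, 3 fell, or 23.1%, namely STE11 and STE7 of the kinase cascade at log2 -1.29 ± 0.24 and -1.22 ± 0.29 (adjusted p = 0.00828 and 0.0201) and KSS1, the other MAP kinase, at -0.94 ± 0.30 (adjusted p = 0.0488). That count depended on scaling. With equal array medians 2 of the 13 fell and 1 rose, and with quantile normalization 2 fell and 0 rose. The 7 a-cell markers had 0 rise and 5 fall at a median of log2 -2.24, while the 4 alpha-cell markers had 0 called (median log2 -0.27). The part of these marker changes in the falls of PRM2, KAR4, AGA1 and FIG1 was not tested.

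Of the 18 other pheromone-induced or mating genes, 2 rose and 3 fell on the arrays labelled A880STM1 against A880, at a median of log2 0.03. PRM8 was at least 119-fold higher (adjusted p = 2.16e-06) and RVS161, whose product binds Fus2, rose by log2 1.30 ± 0.26 (adjusted p = 0.0106), while the falls were AGA2, ASG7, an a-cell gene, at log2 -1.90 ± 0.32 (adjusted p = 0.00523), and SCW11, a cell wall glucanase, at -1.03 ± 0.31 (adjusted p = 0.0421). PRM8 gave 645 and 807 signal units on arrays labelled A880STM1 and 1169 and 1072 on BY4741 arrays. Like POP2, it was missing from A880 alone, and the cause was not tested. Of 6 filamentation genes that Ste12 controls with Tec1, 0 were called.

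**Figure D3:**
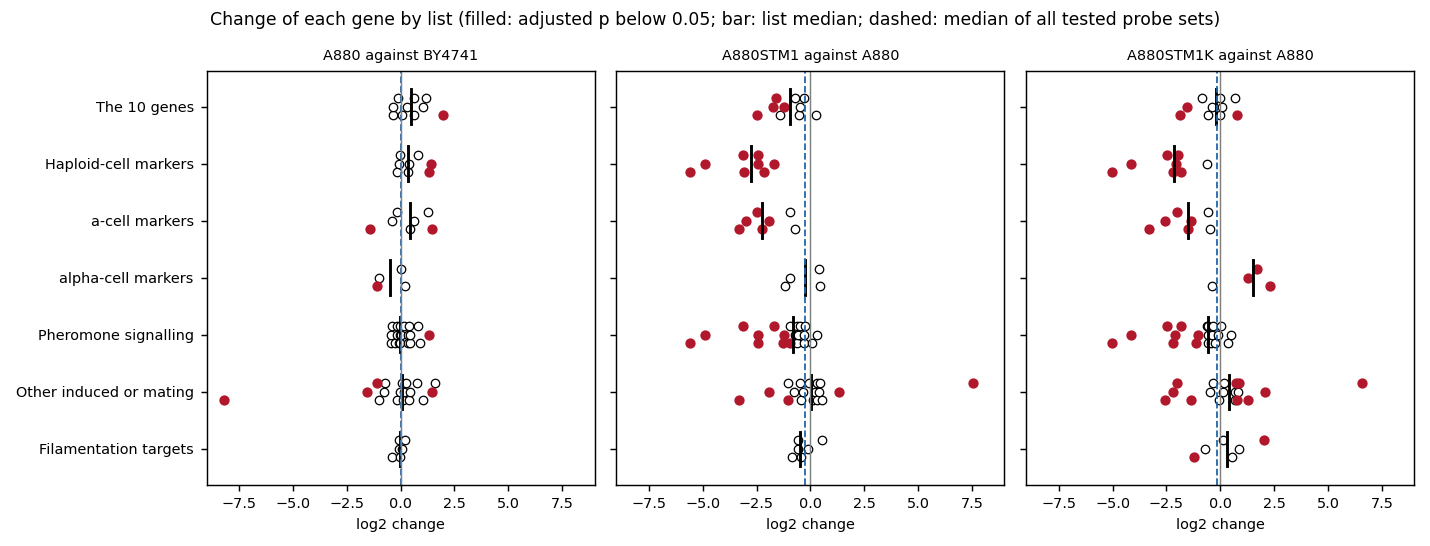
Log2 change of each gene, by list, in 3 comparisons; filled points passed an adjusted p of 0.05, bars are list medians and the dashed line is the median of all tested probe sets. All haploid and a-cell markers lie left of 0 in the 2 comparisons of STM1 strains with A880, but not all lie far from it. In each of these, 2 of the 7 a-cell markers are open. The outlying point of the induced or mating list is PRM8, which was not above background in A880 and is drawn at its fitted value, not its bound.

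A880STM1K was set against A880 for the effect of STM1 R237K, again with POP2 detected. Here 1 member rose, FUS2, and 2 fell, KAR4 and PRM2. That is 30% of members, against 47.1% of all tested probe sets, of which 19.1% were called higher and 28.0% lower, so the members' share lay below that of the array. The members' median was log2 -0.20, against -0.17 for all tested. STE12 gave log2 0.66 ± 0.31 (adjusted p = 0.107), and passed with quantile normalization (log2 1.04, adjusted p = 0.00860), with equal array medians (log2 1.01, adjusted p = 0.0138) and without A880STM1K replicate 2 (log2 1.03, adjusted p = 0.0190), but was log2 0.29 and not called without A880STM1K replicate 1. FIG1, at log2 -0.57 ± 0.39 (adjusted p = 0.255), passed with quantile normalization alone (log2 -0.83, adjusted p = 0.0443).

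Of the haploid-cell markers 7 of 8 fell, the exception being STE4, with STE18 at log2 -5.05 ± 0.30 (adjusted p = 3.51e-06) and FUS3 at -4.16 ± 0.34 (adjusted p = 1.80e-05). Of 20 signalling genes 0 rose and 8 fell, or 40%. Of the 13 outside the marker lists 3 fell, or 23.1%, which is below the 28.0% of all tested probe sets called lower. Of 7 a-cell markers 0 rose and 5 fell. Unlike the haploid-cell and a-cell markers, 3 of 4 alpha-cell markers rose: MF(ALPHA)2 by log2 2.31 ± 0.39 (adjusted p = 0.00104) and MF(ALPHA)1 by 1.72 ± 0.53 (adjusted p = 0.0214), both of them alpha-factor genes, and SAG1 by 1.30 ± 0.26 (adjusted p = 0.00259). The remaining alpha-cell marker, STE3, was not called, at 207 and 133 signal units on arrays labelled A880STM1K against 221 and 213 on A880 arrays. The summed signal of the 4 alpha-cell markers was 856 to 911 on arrays labelled A880STM1K, 375 to 447 on those labelled A880STM1, 440.0 to 484 in A880 and 642 to 721 in BY4741. Their part in the changes of FUS2, KAR4 and PRM2 was not tested. Of the 18 other induced or mating genes 6 rose and 4 fell, among them SCW10, a cell wall glucanase, up by log2 2.07 ± 0.40 (adjusted p = 0.00201), PRM4 at -2.18 ± 0.29 (adjusted p = 0.000313) and KAR3 at -1.38 ± 0.30 (adjusted p = 0.00398). In the same list, PRM8 gave 299 and 443 signal units on arrays labelled A880STM1K, against 2.59 and 5.64 on A880 arrays. AGA2 gave 128 and 118 against 729 and 747. Of 6 filamentation genes 1 rose and 1 fell: FLO11, a flocculin, by log2 2.03 ± 0.44 (adjusted p = 0.00399), and MSB2, a membrane sensor, at -1.20 ± 0.30 (adjusted p = 0.00835).

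Between the STM1 strains, A880STM1K against A880STM1, the question is, by the labels, what the R237K substitution changes. Other genes also separated these strains. On arrays labelled A880STM1K, CAN1 gave 675 and 584 signal units, against 2258 and 2127 on those labelled A880STM1. URA3 gave 1850 and 1384 against 4956 and 4315, and MET17 4608 and 7264 against 2013 and 1210, while the LEU2 pairs overlapped. The substitution and these differences cannot be told apart here. STE12 and FUS2 were called higher and 0 members lower, 20% of the 10, against 17.9% of all tested probe sets called higher, 17.1% called lower and 35.0% in either direction. All members but FIG2 lay on the higher side, at a median of log2 0.64, against 0.10 for all tested probe sets. The profiles of STE12 and FUS2 over the 8 arrays were the most alike of the 45 pairs of members, with a root mean square difference of 0.21 on the log2 scale between profiles centred on their own means. In this comparison KSS1 rose by log2 1.32 ± 0.30 (adjusted p = 0.00711) and STE4, the G protein beta subunit, by 1.06 ± 0.27 (adjusted p = 0.0122), while STE7 gave -0.88 ± 0.29 (adjusted p = 0.0362) and was lower. AGA1 gave log2 0.77 ± 0.41 (adjusted p = 0.167), which became 1.37 (adjusted p = 0.0170) without A880STM1 replicate 2 and 0.17, not called, without A880STM1 replicate 1.

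Against BY4741 few members were called in either STM1 strain in the reported fit. On arrays labelled A880STM1, PRM2 alone was called, 0 members higher and 1 lower, 10% of them, against 11.7% of all tested probe sets, of which 5.40% were higher and 6.30% lower. The members' share was thus near that of the array. The call on PRM2 held in 3 of the 8 fits with 1 array left out. AGA1, at log2 -1.28 ± 0.41 (adjusted p = 0.0623), passed without A880STM1 replicate 2 (log2 -1.88, adjusted p = 0.00911) but was log2 -0.68 and not called without A880STM1 replicate 1. STE12, at log2 -0.81 ± 0.31 (adjusted p = 0.104), passed without either array labelled A880STM1K (adjusted p = 0.0407 and 0.0413). On arrays labelled A880STM1K, limma called 0 of 10 members, against 49.5% of all tested probe sets (21.2% higher and 28.3% lower), and 0 had an unadjusted p under 0.05, against 55.5% of all tested probe sets. That count depended on scaling and was 4 with quantile normalization (FUS2, PRM2, KAR4 and STE12) and 3 with equal array medians (FUS2, KAR4 and STE12). It also turned on single arrays. PRM2 was called at log2 -1.0 (adjusted p = 0.0484) without A880STM1K replicate 1 and was -0.41, not called, without replicate 2. STE12 was called at log2 0.92 (adjusted p = 0.0275) without A880STM1K replicate 2 and was 0.18, not called, without replicate 1. By contrast STE18 was low against BY4741 on both kinds of array, at log2 -5.06 ± 0.30 for A880STM1K (adjusted p = 3.33e-06) and -5.61 ± 0.30 for A880STM1 (adjusted p = 3.47e-06).

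The array-wide split of calls depends on scaling, which matters when a member's direction is read. Of the calls in A880 against BY4741, 55.5% were higher as deposited and 42.7% with equal array medians. In the comparisons with A880 as control, these shares were 34.3% and 66.2% for A880STM1 and 40.6% and 59.4% for A880STM1K. Against BY4741 they were 46.2% and 65.0% for A880STM1, and 42.8% and 53.3% for A880STM1K. For A880STM1 against A880 the array-wide median change moved to log2 0.12, against -0.27 as deposited.

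Against BY4741, haploid-cell markers had 0 rise and 6 fall of 8 on arrays labelled A880STM1K and 0 rise and 7 fall on those labelled A880STM1, and signalling genes had 0 rise with 10 and 8 falls of 20. The shares of all tested probe sets called lower were 28.3% and 6.30% in these comparisons. Between the STM1 strains 2 haploid-cell, 2 a-cell and 3 alpha-cell markers were higher on arrays labelled A880STM1K and 0 of any were lower, and the array's share called higher was 17.9%. The other induced or mating genes had 4 called higher and 1 lower between the STM1 strains, 5 higher and 6 lower for A880STM1K against BY4741 and 1 higher and 4 lower for A880STM1 against BY4741. For A880STM1K against BY4741 those are 27.8% and 33.3% of the list, near the array's 21.2% and 28.3%, and between the STM1 strains the 22.2% called higher is near the array's 17.9%. The part of these lists in the members' values was not tested.

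**Figure D4:**
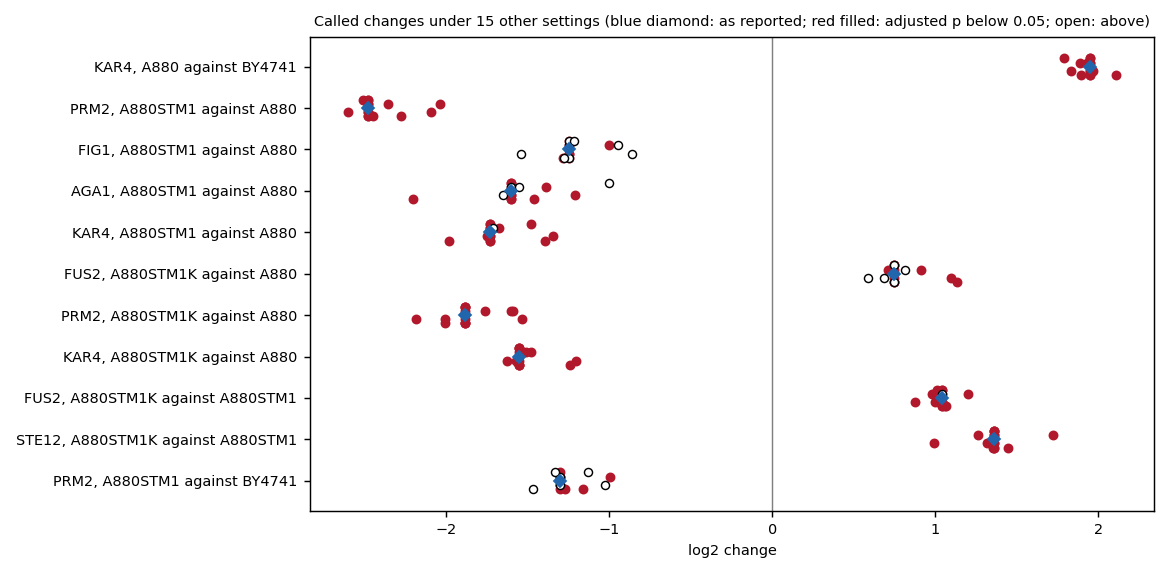
Log2 change of the 11 called member changes under the 15 other settings; diamonds are the reported values, filled circles passed an adjusted p of 0.05 and open circles did not. KAR4 in A880 against BY4741, PRM2 and KAR4 in A880STM1K against A880, PRM2 in A880STM1 against A880 and STE12 in A880STM1K against A880STM1 are filled throughout, and no change crosses 0.

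Genes outside the 10 with the most similar profiles were looked up for FUS1, KAR4 and STE12 by the same root mean square difference over the 8 arrays. CAB4, which encodes an enzyme of coenzyme A synthesis, was closest to KAR4 at 0.090, with 499 and 419 signal units on arrays labelled A880STM1K, 376 and 525 on those labelled A880STM1, 1430.1 and 1413 on A880 arrays and 379 and 419 on BY4741 arrays. Like KAR4, CAB4 was called higher in A880 than in BY4741 and lower in both STM1 strains than in A880. Since CAB4 was picked for its likeness to KAR4 on these same arrays, its calls add no separate result. ARF3, a small GTPase gene, followed at 0.17 and YGR109W-B at 0.21. Closest to STE12 were CWC22 at 0.14, NHP2 at 0.15 and TRZ1 at 0.15, and closest to FUS1 were VPS29 at 0.095, SWP1 at 0.099 and CCT3 at 0.12. With 5496 probe sets and 4 strain levels, close profiles are easily found, and none of these 9 genes is in the pheromone lists used here.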

How the data were processed

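RNA from 8 cultures was hybridised to Affymetrix Yeast Genome arrays. The authors deposited 1 linear intensity for each probe set and array, from the MAS5 algorithm according to the submitters' processing notes (version and settings: not given in the sources used here); trimmed array means of 500.15 to 500.26 show a common scaling. Of 10928 probe sets, 5498 were paired with 1 yeast gene through the platform annotation, with names updated from the gene table of assembly R64. Background was each array's 90th percentile of the 1746 probe sets for another species, and the 5496 probe sets above it on at least 2 arrays were tested. Log2 signals of all 8 arrays were fitted with limma 3.58.1 in R 4.3.3 as 4 group means, with an intensity trend (4 residual degrees of freedom), and each of 6 comparisons was adjusted by Benjamini-Hochberg over all tested probe sets, with calls at an adjusted p below 0.05. Signals are per array, n = 2 per strain, changes are log2 ± SE, and the number of arrays limits the precision. Signals of different probe sets were not compared. A gene above background on neither array of a strain is given as a bound against the background level. The rule for naming list members was those called, by smallest p, up to 6 a list, with list medians beside that of all tested probe sets. Not every called gene or list median within that rule is given. STE11, STE7, KSS1, KAR3, CIK1 and the meiotic genes fall outside that rule in places and were named after their values were seen. Members, lists and tests were chosen with earlier results of these data known. Neighbouring genes and the lists without marker genes were added after values were seen. The code was tested on simulated data. The planned search for a promoter motif was not run, and sequences were not analysed here. Alternatives were other scalings, a pseudocount, no filter, no trend, the replicate block, 4 arrays only, and each array left out.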

Additional observations from a re-analysis of the deposited data

How the results depend on the processing

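Each of the 60 changes of members was computed under 15 alternatives. The counts of called members, given for A880 against BY4741 first, were 1 as reported, 2 with quantile normalization, with a pseudocount of 16, without the intensity trend and with the replicate block, and 3 in the fit to the 4 arrays compared. For A880STM1 against A880 the fit to 4 arrays called 2 in place of 4 and for A880STM1K against A880STM1 it called 1 in place of 2. For A880STM1K against A880 quantile normalization called 5 in place of 3. For A880STM1 against BY4741 equal array medians called 0 and the replicate block 2 in place of 1, and for A880STM1K against BY4741 quantile normalization called 4 and equal array medians 3 in place of 0. With 1 array left out, a group with 1 array was assumed to vary like the others, and called members ranged from 1 to 2 for A880 against BY4741, 1 to 4 for A880STM1 against A880, 2 to 4 for A880STM1K against A880, 2 to 3 for A880STM1K against A880STM1, 0 to 2 for A880STM1 against BY4741 and 0 to 1 for A880STM1K against BY4741. In the same order, called probe sets ranged from 95 to 1261, 124 to 2283, 1532 to 2964, 1542 to 2136, 97 to 1951 and 1676 to 3072. Other counts of probe sets were 2992 (4 arrays) and 1383 (quantile normalization) against 764 for A880 against BY4741, 1179 (4 arrays) against 1925 for A880STM1K against A880STM1, and 967 (replicate block) against 643 for A880STM1 against BY4741. Deviations of same-numbered arrays correlated, across genes, at 0.037 to 0.29 over the 6 pairs of strains, 5 of them over 0.1. The labels tie no number to a shared culture or batch, and the numbers were to be taken as pairing the samples only if every pair exceeded 0.1, so a shared replicate effect was not built into the reported fit and is not excluded. The replicate block added the calls of PRM2 in A880 against BY4741 (adjusted p = 0.0422), of PRM1 in A880STM1 against A880 (0.0469) and A880STM1K against A880STM1 (0.0343) and of AGA1 in A880STM1 against BY4741 (0.0452), and ended none.

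The sign of some uncalled changes turned, each uncalled there too. With quantile normalization FUS2 was log2 0.072 for A880STM1 against A880, FIG2 0.15 for A880STM1 against BY4741. Likewise for A880STM1K against BY4741, PRM3 was log2 -0.043 and FIG1 was log2 -0.0361. With equal array medians PRM3 was log2 -0.060 for A880 against BY4741, FUS2 0.097 for A880STM1 against A880, PRM1 0.34 and PRM3 0.31 for A880STM1K against A880, and FIG2 0.20 for A880STM1 against BY4741. PRM1 was log2 0.017 for A880STM1K against A880 with a pseudocount of 16. With 1 array left out, the log2 changes that turned ranged, for A880 against BY4741, from -0.23 to 0.35 (PRM3); for A880STM1 against A880, from -0.022 to 0.54 (FIG2); for A880STM1K against A880, from -0.61 to 0.59 (PRM1) and -0.28 to 0.21 (PRM3); for A880STM1K against A880STM1, from -0.020 to 0.24 (FUS1), -0.48 to 0.080 (FIG2) and -0.076 to 0.43 (KAR4); for A880STM1 against BY4741, from -1.06 to 0.29 (PRM1), -0.35 to 0.21 (FIG2) and -0.034 to 0.47 (KAR4); and for A880STM1K against BY4741, from -0.27 to 0.31 (PRM3) and -0.22 to 0.33 (FIG1). The cause was not tested.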

Other observations

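The 5 meiotic genes read here were listed as markers of a/alpha diploid cells, beside the haploid-cell markers. Kar4 also acts outside mating, with the RNA methyltransferase Ime4 in early meiosis. Of the 5 meiotic genes, 2 rose and 3 fell for A880STM1K against A880, 1 rose and 1 fell for A880STM1 against A880, and 1 rose and 0 fell for A880 against BY4741. IME4 gave 199 and 272 signal units on arrays labelled A880STM1K, 315 and 596 on those labelled A880STM1, 26.3 and 20.2 on A880 arrays and 41.6 and 38.2 on BY4741 arrays. All 4 arrays of the STM1 strains lay above the other 4. IME4 rose by log2 3.34 ± 0.39 for A880STM1K against A880 (adjusted p = 0.000148) and by 4.23 ± 0.39 for A880STM1 against A880 (adjusted p = 0.000129). IME1, the inducer of meiosis, gave 201 and 132 on arrays labelled A880STM1K, 1294 and 1526 on those labelled A880STM1, 2094 and 2353 on A880 arrays and 179 and 212 on BY4741 arrays. IME1 and KAR4 were both highest in A880, but on arrays labelled A880STM1 IME1 remained 2.85 ± 0.27 above BY4741 on the log2 scale (adjusted p = 0.000267), where KAR4 gave 0.22 ± 0.27 (adjusted p = 0.584). NDT80, the activator of middle meiotic genes, fell in both STM1 strains against A880, at log2 -1.71 ± 0.32 for A880STM1K (adjusted p = 0.00174) and -1.61 ± 0.32 for A880STM1 (adjusted p = 0.0107). For A880STM1K against A880, IME1 and IME2, a meiotic kinase, also fell, at log2 -3.76 ± 0.27 (adjusted p = 7.69e-06) and -1.20 ± 0.33 (adjusted p = 0.0132), and SPO11, which makes meiotic DNA breaks, rose by log2 1.10 ± 0.37 (adjusted p = 0.0300).

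FUS1, KAR4 and FIG2 all lie on chromosome III. Of the tested genes among the 5 on each side of KAR4, 2 of 8 were called higher and 0 lower in A880 against BY4741, PRD1 at log2 1.41 ± 0.24 (adjusted p = 0.00516) and APA1 at 1.23 ± 0.21 (adjusted p = 0.00594). For FUS1 the neighbours called were 0 higher and 1 lower of 10, and for FIG2 1 higher and 0 lower of 9, near the 7.71% of all tested probe sets called higher and 6.19% called lower. These genes were chosen after values were seen.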
